A study of Mus musculus with 8 samples.

Results

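The synaptic vesicle glycoprotein 2 (SV2) family was followed in the adult mouse hippocampus as 3 genes, Sv2a, Sv2b and Sv2c, out of 46517 genes listed for bulk RNA and 24051 listed for single nuclei. The genes were taken by name, with their values by cell type and genotype already known, so the levels by cell type are given as a description without a test. Hippocampi came from 12-week-old mice labelled as male. Mutants were Gfap-Cre;Wlsfl/-, carrying 1 floxed and 1 null copy of Wls, and controls were Gfap-Cre;Wlsfl/+, which also carry the Cre transgene and keep 1 functional copy of Wls in recombined cells. Wls encodes Wntless, the transporter that Wnt proteins need for secretion. The Cre line, Gfap-Cre, recombines in a subset of neural progenitors, so the adult tissue mixes recombined and unrecombined lineages, and the dentate gyrus of the mutants is missing most of its granule cells (DGCs). Each genotype had 2 mice for bulk RNAseq and 2 for single nucleus (sn) RNAseq.

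SV2 proteins are membrane glycoproteins of synaptic vesicles and of dense core vesicles in endocrine cells. They have the fold of the transporters of the major facilitator superfamily, bind the calcium sensor synaptotagmin, and take part in making vesicles ready for calcium-triggered release. SV2A is the binding site of the antiseizure drug levetiracetam, and SV2 proteins serve as receptors for botulinum neurotoxins. SV2A is known to be widespread in brain, SV2B to be found mostly in forebrain glutamatergic neurons, and SV2C to be more restricted, with high levels in basal ganglia.

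In the mm10 build, Sv2a (ENSMUSG00000038486) lies on the plus strand of chromosome 3 from 96181151 to 96195521, a span of 14.4 kb. Sv2b (ENSMUSG00000053025) lies on the minus strand of chromosome 7 from 75114894 to 75309262, a span of 194 kb, and 1 of the 2 genes annotated within or across it, 1500012K07Rik, is on the opposite strand and overlaps an exon. Sv2c (ENSMUSG00000051111) lies on the minus strand of chromosome 13 from 95954594 to 96132577, a span of 178 kb, and holds 3 further annotated genes in its introns. Whether counting used strand is not given in the sources used here, so reads of overlapping genes may not be told apart; 1500012K07Rik itself had 4.63 to 21.2 expected counts per bulk sample, against 23351 or more for Sv2b. Introns are counted in nuclei, so levels in nuclei are compared within a gene and not between genes of such different span.

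The start-site regions of the 3 genes are shown because the genes share a protein family but differ in the cells that hold their RNA. Each is 250 bases before to 50 bases after the start in RefSeq (GRCm38.p6), read on the strand of the gene, with matches to 4 searched motifs in capitals. These are chr3:96180977-96181276 for Sv2a, chr7:75309213-75309512 for the first of 4 listed starts of Sv2b, and chr13:96132528-96132827 for Sv2c.
Sv2a: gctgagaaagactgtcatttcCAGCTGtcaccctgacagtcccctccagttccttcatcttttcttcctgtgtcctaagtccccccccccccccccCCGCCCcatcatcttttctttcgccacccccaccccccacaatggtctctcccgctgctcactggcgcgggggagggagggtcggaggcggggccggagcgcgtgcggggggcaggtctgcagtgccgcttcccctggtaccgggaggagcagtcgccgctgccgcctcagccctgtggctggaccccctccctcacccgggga
Sv2b: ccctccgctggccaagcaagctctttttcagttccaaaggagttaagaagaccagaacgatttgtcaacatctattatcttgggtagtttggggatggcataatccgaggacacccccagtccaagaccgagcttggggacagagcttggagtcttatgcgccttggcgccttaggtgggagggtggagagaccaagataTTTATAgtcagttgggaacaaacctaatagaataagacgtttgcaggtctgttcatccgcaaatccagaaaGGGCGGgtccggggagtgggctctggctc
Sv2c: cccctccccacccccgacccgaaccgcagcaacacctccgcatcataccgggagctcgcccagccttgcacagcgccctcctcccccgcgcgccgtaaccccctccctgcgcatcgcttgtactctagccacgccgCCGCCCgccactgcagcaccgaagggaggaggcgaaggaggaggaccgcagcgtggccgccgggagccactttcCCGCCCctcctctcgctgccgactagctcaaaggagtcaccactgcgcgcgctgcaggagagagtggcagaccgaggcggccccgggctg
The motifs, searched on both strands, were the GC box GGGCGG, the TATA sequence TATAAA, the E-box CAGCTG and the cAMP response element TGACGTCA. They occurred in 35.7%, 13.6%, 16.3% and 1.79% of 32851 promoters of that length. Sv2c had 2 GC boxes, with 71.7% GC and 32 CpG dinucleotides. Sv2a had 1 GC box and 1 E-box, with 68% GC and 17 CpGs. Sv2b had 1 GC box and 1 TATA sequence on its reverse strand, with 51.3% GC and 10 CpGs, near the medians of 52.7% and 7 over all promoters. No cAMP response element of these exact letters was in the 3 windows.

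Bulk libraries held 56002381 to 79576196 expected counts. The nuclei comprised 6469 and 7192 from controls and 5304 and 10460 from mutants, with medians of 4128 to 7544.5 unique molecular identifiers (UMIs) per nucleus, and 87 of 29338 barcode sequences occurred in more than 1 library. DGCs were 36.1% and 27.9% of control nuclei and 1.7% and 4.43% of mutant nuclei. Wls was lower in bulk mutants, at 3.67 and 6.86 CPM (counts scaled to the library total) against 13.2 and 13.03, a log2 fold change of -1.31 ± 0.30 (SE) that missed the threshold (FDR = 0.117, edgeR). Both bulk libraries of replicate number 2, 1 of each genotype, had Xist at 230 CPM or more and Ddx3y at 0.352 CPM or less, which goes against their male label, while both of replicate number 1 had the opposite. Cell types keep the names given by the authors, and 18 of them had 10 or more nuclei in all 4 samples. Of these, inhibitory neurons 14 had only 32.2 to 89.8 CPM of Gad1, Gad2 and Slc32a1 in sum, against 1125 to 1855 CPM of 3 markers of meningeal fibroblasts, 951 to 1767 CPM of 3 of endothelial cells and 995 to 1598 CPM of 3 of astrocytes. Excitatory neurons 19 had 435 to 1046 CPM of the astrocyte markers, 273 to 778 CPM of the fibroblast markers and 21.0 to 255 CPM of the excitatory ones, Slc17a7, Neurod2 and Nrgn. These clusters went against their names and are called by number.

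In nuclei, Sv2b was high in glutamatergic neurons other than DGCs, and low in DGCs, GABAergic neurons and glia. CA2 pyramidal cells stood first, with 491 and 471 CPM in the controls and 481 and 512 CPM in the mutants. CA3 pyramidal cells followed with 417 and 438 CPM in the controls and 386 and 516 CPM in the mutants. CA1 pyramidal cells had 262 and 293 CPM in the controls and 329 and 348 CPM in the mutants. The CA2 controls lay above the CA3 controls, while CA3 overlapped the next type, excitatory neurons 10, at 413 and 422 CPM.

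DGCs, although glutamatergic, held the lowest Sv2b level of the 18 types, 8.18 and 9.16 CPM in the controls. The control mean of CA2 was 55.5 times that of DGCs. The control levels in inhibitory neurons 5, which express Gad1 and Gad2, were 15.9 and 19.2 CPM, and those in microglia, which should lack the gene, were 16.5 and 19.4 CPM. The control levels in DGCs and inhibitory neurons 5 were thus not above those in microglia. The microglia are not a clean reference, since over the samples they had 2415 to 4229 CPM of the 3 astrocyte markers. Their own 3 markers, Cx3cr1, P2ry12 and Csf1r, had 3691 to 3935 CPM in sum. By nucleus, 99.0% and 97.6% of control CA2 nuclei held an Sv2b UMI, at medians of 10060 and 16520 UMIs per nucleus, against 2.86% and 4.53% of microglia at medians of 1632 and 2434. After thinning each nucleus to 1500 UMIs these shares were 51.5% and 55.4% in CA2, and 1.9% and 2.79% in microglia. Of 17 pairs of neighbours in the order of types, 11 overlapped in the controls, among them all pairs from inhibitory neurons 14 down to DGCs.

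The Sv2b level also set apart a small cluster from its name. Inhibitory neurons 15, too rare in controls to be tested at 15 and 1 nuclei, had 272 and 308 CPM of Sv2b in the mutants and 205 CPM in control 1. Its summed Gad1, Gad2 and Slc32a1 was at most 19.8 CPM, and its summed Slc17a7, Neurod2 and Nrgn was 294 to 487 CPM, so its defining markers went against the inhibitory label.

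Sv2c was the most restricted of the family. Inhibitory neurons 18, a cluster rich in Gad1, Gad2, Slc32a1 and the extracellular matrix glycoprotein gene Reln, had 365 and 515 CPM in the controls and 482 and 420 CPM in the mutants. Inhibitory neurons 12 followed with 110 and 113 CPM in the controls and 148 and 126 CPM in the mutants. DGCs had 63.3 and 78.1 CPM in the controls and 41.1 and 74.7 CPM in the mutants. The 2 leading clusters did not overlap each other or DGCs in the controls, while DGCs and excitatory neurons 7 overlapped.

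Types other than these 4 had control means of 20.0 CPM or less, and microglia, at 0 and 2.78 CPM, were lowest. The largest inhibitory cluster, number 5, with 6.78 and 10.8 CPM, lay in that low group. An Sv2c UMI was found in 78.3% of 23 nuclei (exact 95% binomial interval 56.3 to 92.5%) and 87.5% of 24 nuclei (67.6 to 97.3%) of inhibitory neurons 18 in the controls. It was found in 23.5% and 36.0% of control DGCs, at medians of 4628 and 7688 UMIs per nucleus. Microglia of control 1 held it in 0 of 105 nuclei, which allows a share of up to 2.86%, and microglia of control 2 in 0.697%. Thinned to 1500 UMIs, the control shares were 47.8% and 66.7% in inhibitory neurons 18 and 8.65% and 9.72% in DGCs. Intervals and limits cover counting error only.

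Sv2a UMIs were found in every type, and the gene varied least, 9.53-fold between the highest and lowest control means. The lowest type, excitatory neurons 19, rested on 2 and 4 Sv2a UMIs in the controls. Microglia, the reference used above for Sv2b, had 88.1 and 73.5 CPM of Sv2a in the controls. Inhibitory neurons 12 had 257 and 347 CPM, inhibitory neurons 18 had 249 and 299.5 CPM, and inhibitory neurons 5 had 238 and 267 CPM in the controls, all overlapping. DGCs, at 100 and 104 CPM, and CA1 cells, at 84.8 and 96.8 CPM, were among the middle types. Oligodendrocytes, a glial type, had 159 and 249 CPM in the controls and 244 and 241 CPM in the mutants, as much as many neurons. Astrocytes had 39.3 and 32.02 CPM. Of 17 pairs of neighbours in the order, 11 overlapped in the controls.

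**Figure D1:**
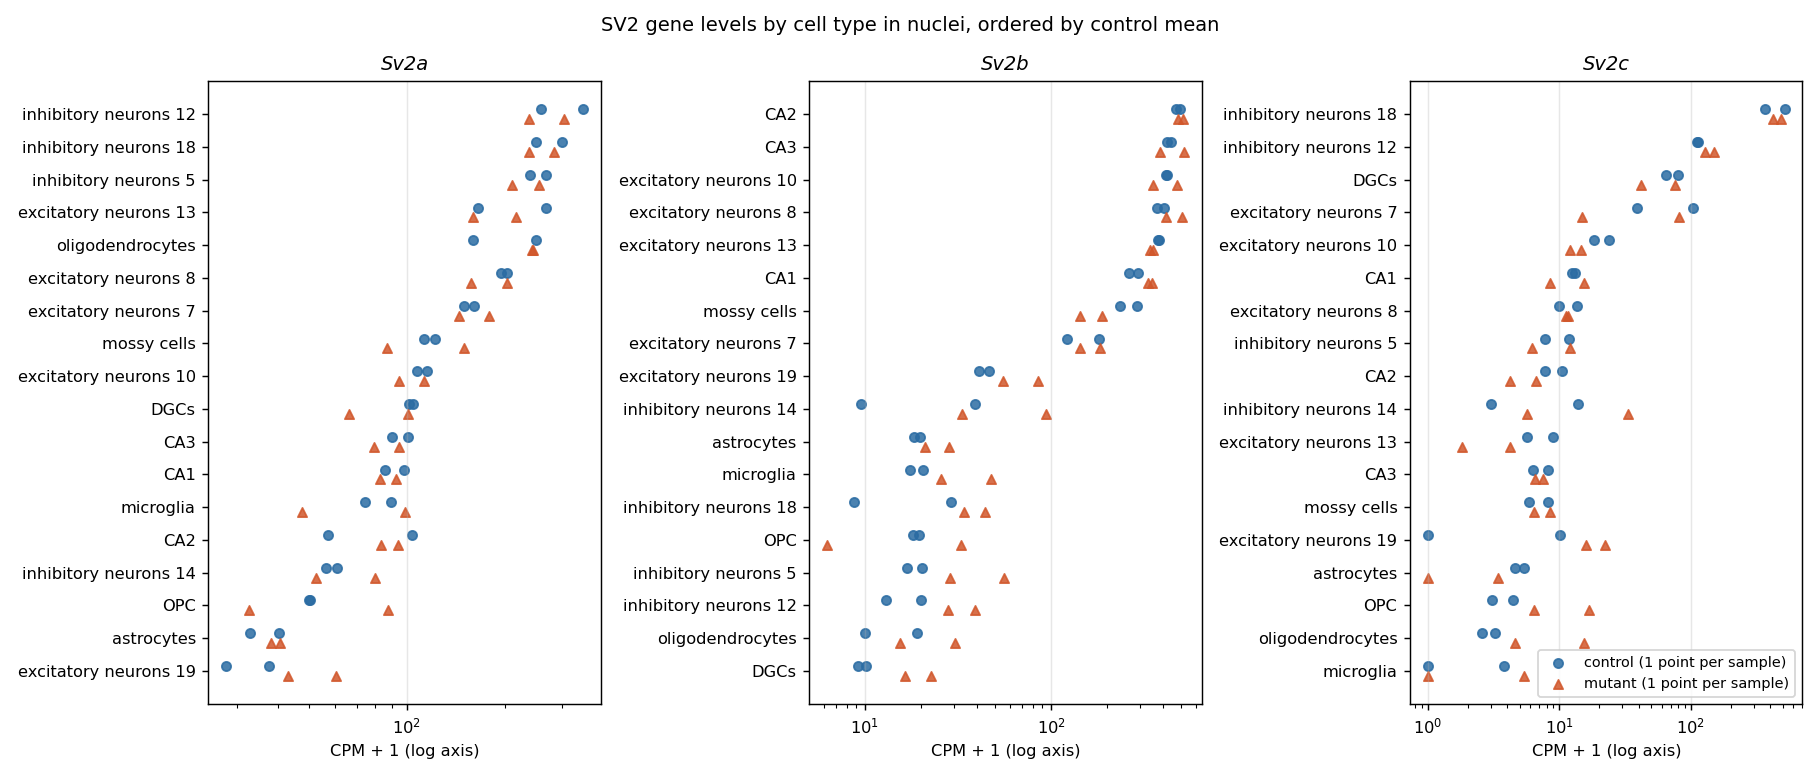
CPM plus 1 on a log axis for each SV2 gene in 18 cell types, with 1 point for each of 2 control (circles) and 2 mutant (triangles) samples, ordered by control mean. Sv2b falls from 481 CPM in CA2 to 8.67 CPM in DGCs, Sv2c peaks at 440 CPM in inhibitory neurons 18, and Sv2a spans 9.53-fold.

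Within inhibitory neurons 5, 12 and 18, pooled, Sv2c was higher in nuclei with Lamp5 or Nos1 and lower in nuclei with Sst or Pvalb. Nuclei with a UMI of Lamp5, a membrane protein gene that marks neurogliaform cells, had 152 and 181 CPM of Sv2c in the controls and 238 and 179 CPM in the mutants. Those without had 16.8 and 14.2 CPM in the controls and 33.6 and 19.6 CPM in the mutants, lower in every sample. Nuclei with Nos1, the neuronal nitric oxide synthase gene, had 102 and 102 CPM in the controls and 93.1 and 94.5 CPM in the mutants, against 22.3 and 27.3 CPM and 43.2 and 30.4 CPM without it. Sv2c was instead lower with the somatostatin gene Sst, at 13.99 and 20.5 CPM against 43.9 and 63.8 CPM in the controls. It was also lower with the parvalbumin gene Pvalb, at 4.78 and 18.7 CPM against 42.2 and 55.9 CPM. Sv2a varied little by these markers, between 206 and 341 CPM in the controls whether or not a nucleus had a UMI of Lamp5, Nos1, Sst or Pvalb.

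Within DGCs, Sv2c was higher in control nuclei with a UMI of a ventral marker (Trhr, Grp or Cpne7), at 88.6 and 111 CPM, than in those without, at 60.3 and 70.8 CPM. It was also higher with a UMI of a dorsal marker (Lct, Gsg1l or Stra6), at 74.6 and 84.6 CPM against 51.2 and 56.6 CPM. Since Sv2c was higher in the controls with either marker set, these splits do not separate dorsal from ventral DGCs. The same splits in the mutants rested on 23 to 294 nuclei a side and gave no common order. Levels were 34.0 and 80.2 CPM with a ventral marker against 43.8 and 71.1 CPM without. With a dorsal marker they were 32.4 and 84.3 CPM against 50.6 and 66.7 CPM without.

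Across the 18 types, the gene whose control pattern was most like Sv2b was Neurod6, a transcription factor gene of pyramidal neurons (Pearson r = 0.91 of log2(CPM + 1) over 18 types), followed by Gm38413, Gpr26, AC129186.1 and Gm15997 (r = 0.86 to 0.87). The genes most like Sv2c were Cntn5, a contactin cell adhesion gene, and Gabrd, the delta subunit of extrasynaptic GABA-A receptors (both r = 0.88), then Gm46102, Zmat4 and Lamp5 (r = 0.84 to 0.85). Those most like Sv2a were Crtac1, 4932438A13Rik, Resp18, Fgf9 and Chd3os (r = 0.82 to 0.85). Among the SV2 genes themselves r was 0.56 for Sv2a with Sv2c, 0.04 for Sv2a with Sv2b and -0.10 for Sv2b with Sv2c. These are descriptions over types that share 2 libraries and differ in depth.

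In bulk hippocampal RNA, Sv2c was 3.41-fold lower in mutants, whereas Sv2a and Sv2b differed far less. Per length, Sv2c had 11.2 and 9.91 TPM (transcript abundance scaled for gene length and library total) in the controls and 2.86 and 2.99 TPM in the mutants, so the genotypes did not overlap. Its log2 fold change was -1.77 ± 0.09 (SE, n = 2 and 2), with a 95% interval of -2.00 to -1.54 (FDR = 0.0102, edgeR quasi-likelihood test). It was 1 of 45 genes, 0.218% of 20687 tested, that passed FDR below 0.05 with a fold above 3. The call depended on both controls, with FDR = 0.111 without control replicate 1 and FDR = 0.128 without control replicate 2. In bulk, fewer cells of a type and less RNA per cell cannot be told apart.

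Sv2b had 164 and 167 TPM in the controls and 186 and 189 TPM in the mutants. The mutants lay above the controls, with a log2 fold change of 0.26 ± 0.05 (SE) that missed the threshold (FDR = 0.1, edgeR). Its FDR was 0.000647 with DESeq2 and 0.0126 without the filter on low counts (edgeR), in both cases far short of a 3-fold difference. Sv2a had 287 and 279 TPM in the controls and 288 and 276 TPM in the mutants, overlapping, with a log2 fold change of 0.07 ± 0.05 and a 95% interval of -0.07 to 0.20 (FDR = 0.576, edgeR). Of the summed TPM of the family, Sv2a made up 59.0 to 62.1%, Sv2b 35.4 to 40.4%, and Sv2c 2.44% and 2.17% in the controls and 0.6% and 0.64% in the mutants.

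**Figure D2:**
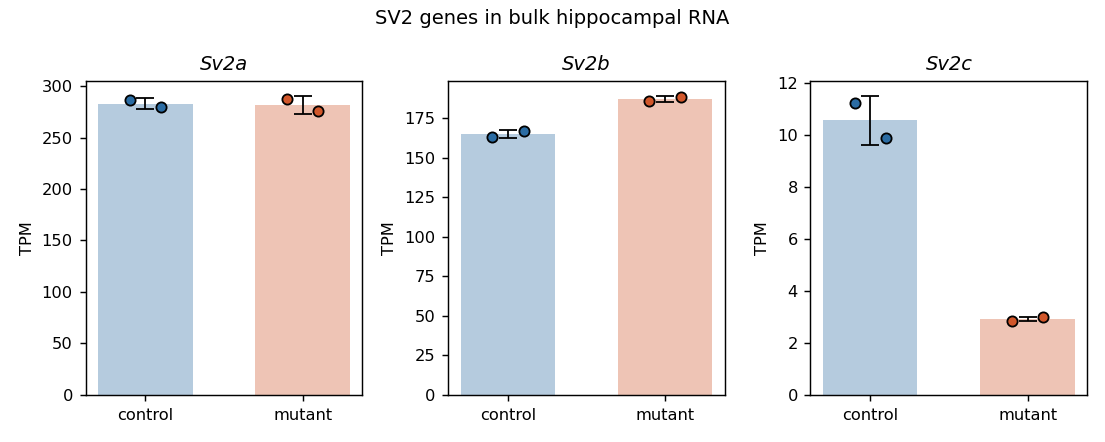
TPM of each SV2 gene in bulk hippocampal RNA, with bars for the mean of 2 samples, error bars for the SD and points for each sample. The mutants are at 2.86 and 2.99 TPM for Sv2c against 11.2 and 9.91 TPM in the controls, and overlap the controls for Sv2a.

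The nuclei, which are separate libraries, gave the share of the UMIs of each gene by cell type. The part of these shares in the bulk values was not tested. DGCs supplied 58.9% and 64.6% of all Sv2c UMIs in the controls but 2.62% and 21.1% in the mutants. Inhibitory neurons 12 and 18 together supplied 9.08% and 12.8% in the controls and 26.3% and 39.4% in the mutants. Sv2b came mostly from CA1 to CA3, with 80.1% and 85.6% in the controls and 63.6% and 77.7% in the mutants, and DGCs gave 1.354% and 1.303% in the controls. Of Sv2a UMIs, DGCs gave 26.7% and 21.6% in the controls and 0.876% and 3.47% in the mutants.

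**Figure D3:**
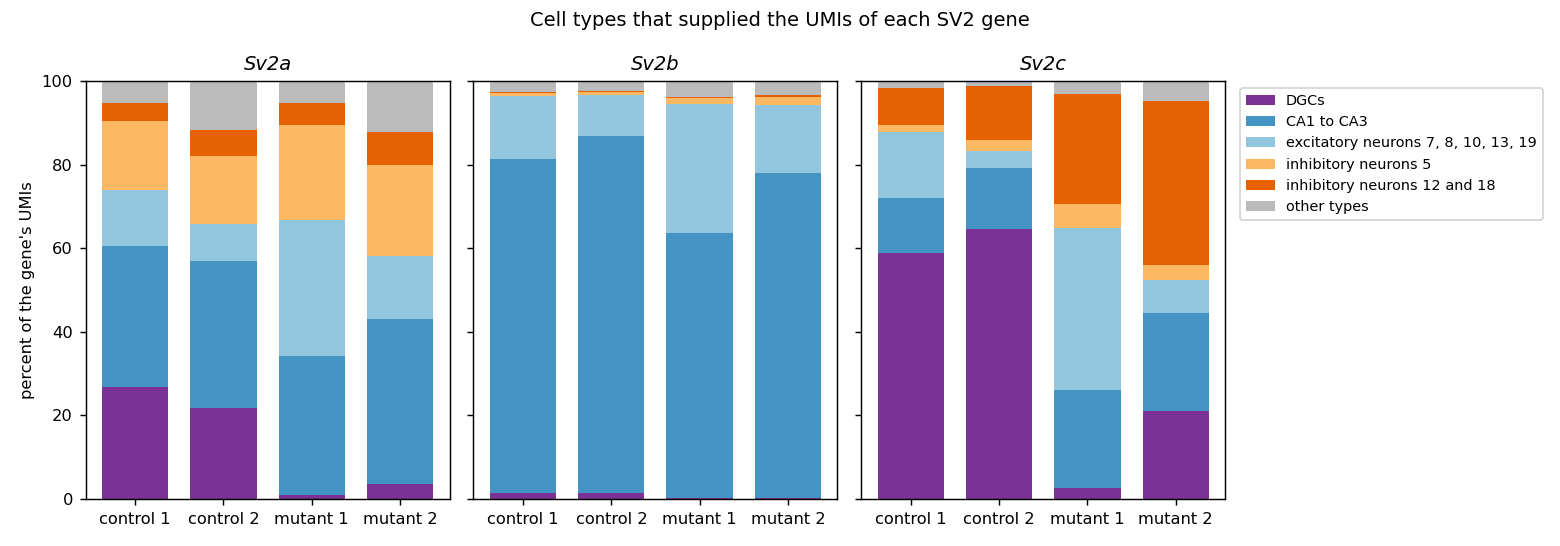
Percent of the UMIs of each SV2 gene that came from each group of cell types, as 1 stacked bar per sample of nuclei. DGCs make up 58.9% and 64.6% of the Sv2c bars of the controls and 2.62% and 21.1% of those of the mutants.

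Summed over all nuclei, Sv2c was at 31.4 and 31.97 CPM in the controls and 24.7 and 15.9 CPM in the mutants, lower in both mutants (log2 fold change -0.67 ± 0.24, FDR = 0.302, edgeR). Leaving out mutant replicate 1 gave -1.06, and leaving out mutant replicate 2 gave -0.36. With the DGC nuclei left out, the samples overlapped at 18.2 and 15.4 CPM in the controls and 24.4 and 13.1 CPM in the mutants, and the log2 difference was 0.14 (FDR = 0.886, edgeR). Sv2b was at 176 and 186 CPM in the controls and 265 and 293 CPM in the mutants (log2 fold change 0.60 ± 0.13, FDR = 0.197, edgeR). Without DGCs it was at 245 and 249 CPM against 269 and 306 CPM. Sv2a overlapped, at 110 and 127 CPM against 117 and 129 CPM. No gene among 20575 passed in this comparison (0%) by edgeR at FDR below 0.05 and a fold above 2, with 3042 at an unadjusted p below 0.05 and 291 called by DESeq2.

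Within cell types, 42 of the 54 combinations of an SV2 gene and a type passed the filter on low counts, and the other 12, of which 9 were Sv2c, were too low to test. None of the 42 was called in edgeR, where 0.19% of all gene and type combinations were. At an unadjusted p below 0.05 were 5 of the 42, all of them Sv2b, against 9.31% of all combinations, and DESeq2 called none.

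Sv2c did not differ by genotype in DGCs beyond the spread (log2 fold change -0.11, 95% interval -0.66 to 0.43). Leaving out mutant replicate 2 gave -0.83, and leaving out mutant replicate 1 gave 0.0882. A ventral marker UMI was found in 23 of 90 and 169 of 463 DGCs of the mutants. In the controls it was found in 232 of 2336 and 348 of 2007 DGCs. The part of this mix in the genotype comparisons of DGCs was not tested. In inhibitory neurons 18 the log2 fold change was 0.03 (-0.50 to 0.55), and in inhibitory neurons 12 it was 0.31 (-0.12 to 0.74). In excitatory neurons 10 it was -0.69 (-1.56 to 0.18), with 22.8 and 17.2 CPM in the controls and 13.6 and 11.1 CPM in the mutants.

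Excitatory neurons 7 were uneven between samples of the same genotype: 103 and 38.0 CPM of Sv2c in the controls and 79.99 and 13.9 CPM in the mutants. The genotypes overlapped (log2 fold change -0.52, -2.14 to 1.10). Without mutant replicate 1 the value was -2.31 (FDR = 0.0031, edgeR), and without control replicate 1 it was 0.40. Nuclei with at least 2 Sv2c UMIs were 44 of 326 and 16 of 195 in the controls and 39 of 753 and 3 of 352 in the mutants. These nuclei held 114 of 168 and 42 of 53 Sv2c UMIs in the controls and 91 of 203 and 10 of 25 in the mutants.

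Sv2a ranged from a log2 fold change of -0.19 in DGCs (95% interval -0.66 to 0.27) to 0.63 in OPCs, the oligodendrocyte precursors (-0.03 to 1.28). Without mutant replicate 2 the DGC value was -0.69, and without mutant replicate 1 it was -0.02. Sv2a had no unadjusted p below 0.05 in the 17 types tested, of which 8 were above 0 and 9 below.

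Sv2b was above 0 in 14 of 16 types tested. In 9 of 18 types both mutants lay above both controls, and in 2 both lay below. Over all gene and type combinations these shares were 16.4% and 16.8%. The types share the same libraries, so they are not separate outcomes. Some of the 9 rest on few counts: inhibitory neurons 18 of control 1 held 1 Sv2b UMI. Excitatory neurons 19 held 3 and 5 Sv2b UMIs in the controls and 4 and 11 in the mutants. The 4 types with an unadjusted p below 0.05 and a positive value were types where the Sv2b level was low. Both mutants were also above both controls in microglia, which should lack the gene but also had astrocyte markers, at 46.4 and 24.8 CPM against 16.5 and 19.4 CPM. Astrocytes did so too, at 20.1 and 27.4 CPM against 18.8 and 17.5 CPM. The microglia of mutant 1 were 13 nuclei with 1 Sv2b UMI in all, and the astrocytes of mutant 1 held 7 Sv2b UMIs. Inhibitory neurons 5 had 15.9 and 19.2 CPM in the controls and 27.6 and 55.0 CPM in the mutants, a log2 fold change of 1.29 ± 0.31 (SE; FDR = 0.278, edgeR). Mutant replicate 2 carried much of it, since without that sample the value was 0.66 (FDR = 0.486). Without the filter on low counts it was called (FDR = 2.42e-05, edgeR). Inhibitory neurons 12 had 12.002 and 19.1 CPM against 27.0 and 38.0 CPM (log2 fold change 1.11 ± 0.36, FDR = 0.349, edgeR). DGCs had 8.18 and 9.16 CPM against 21.7 and 15.5 CPM (0.97 ± 0.30, FDR = 0.154, edgeR), on 9 and 53 UMIs in the mutants. Cluster 14, which went against its name, had 8.53 and 37.9 CPM against 32.2 and 92.8 CPM (1.47 ± 0.57, FDR = 0.889, edgeR).

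In types where Sv2b was high, the differences were smaller: the log2 fold change was 0.27 in CA1 (95% interval -0.07 to 0.62), 0.11 in CA2 (-0.25 to 0.47) and 0.10 in CA3 (-0.29 to 0.50). Mossy cells, the glutamatergic cells of the hilus, went the other way, with 287 and 233 CPM in the controls and 188 and 142 CPM in the mutants (log2 fold change -0.69 ± 0.26, FDR = 0.351, edgeR). They were 38 and 32 control nuclei and 27 and 89 mutant nuclei.

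A test of whether the genotype difference varied among the 18 types, with the mouse as a block, called Sv2b (FDR = 0.000726, edgeR), among 1.72% of 15499 genes. It was also called without DGCs (FDR = 0.0286). It was lost without mutant replicate 2 (FDR = 0.853) and without control replicate 1 (FDR = 0.723). Sv2a and Sv2c were not called (FDR = 0.938 and FDR = 0.969), although Sv2c was called without mutant replicate 1 (FDR = 0.0276).

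In inhibitory neurons 5, most Sv2b UMIs of mutant 2 sat in few nuclei. Those with 3 or more Sv2b UMIs were 44 of 974 and held 67.7% of the Sv2b UMIs in that sample. They were 8 of 659 in mutant 1, with 37.0% of its Sv2b UMIs, and 3 of 381 and 11 of 395 in the controls, with 36.2% and 53.8%. In mutant 2 their median was 17513.5 UMIs per nucleus against 7384 in the others. Their summed Slc17a7, Neurod2 and Nrgn was 304 CPM against 73.9 CPM, and their summed Gad1, Gad2 and Slc32a1 was 233 CPM against 591 CPM. The same differences held in the other 3 samples, with 251 to 436 CPM of the excitatory markers in the nuclei with 3 or more Sv2b UMIs and 65.8 to 126 CPM in the others. Doublets were not called here, and the part of these nuclei in the result was not tested. Leaving out the 5% of nuclei with most UMIs gave a log2 fold change of 1.06 (FDR = 0.391, edgeR). Over the whole cluster these excitatory markers overlapped between genotypes, at 73.5 and 97.9 CPM in the mutants and 92.8 and 145 CPM in the controls. The summed CA1 markers (Fibcd1, Mpped1 and Wfs1) were higher in both mutants, at 144 and 148 CPM against 73.52 and 89.4 CPM, and their part in the result was not tested. In nuclei of inhibitory neurons 5, 12 and 18 with a UMI of the cholecystokinin gene Cck, Sv2b was at 41.1 and 72.2 CPM in the mutants and 11.5 and 23.1 CPM in the controls. Without it, the levels were 21.8 and 33.0 CPM and 18.6 and 11.2 CPM. The higher level in both mutants was not particular to Cck. With Lamp5, Sv2b was at 53.2 and 66.4 CPM in the mutants and 29.2 and 22.5 CPM in the controls. With Reln it was at 40.3 and 53.4 CPM against 16.5 and 22.5 CPM. With the neuropeptide Y gene Npy the genotypes overlapped, at 26.7 and 39.4 CPM against 8.98 and 26.8 CPM.

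**Figure D4:**
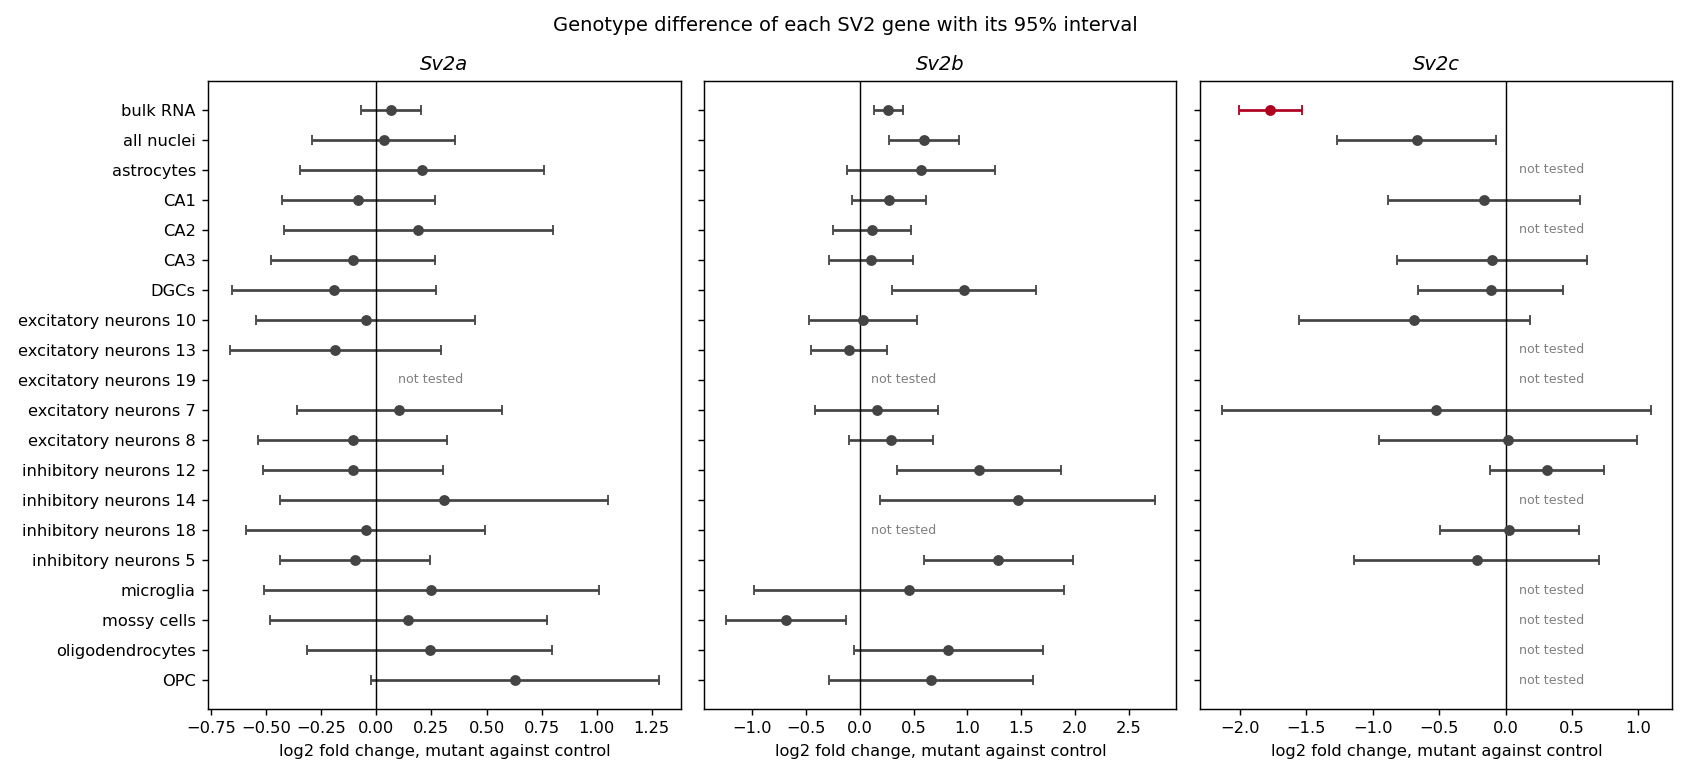
Log2 fold change of mutant against control for each SV2 gene in bulk RNA, in all nuclei and in 18 cell types, with 95% intervals (the horizontal scale differs between panels). The bulk value of Sv2c (-1.77, red) is the call that passed; Sv2c in DGCs is at -0.11, and Sv2b is highest in types of low level such as inhibitory neurons 5 (1.29).

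A list of 57 further vesicle genes, grouped by role, gave the surroundings of the family. In bulk all 57 were tested, of which 1 rose and 4 fell at FDR below 0.05 (1.21% of all genes passed without a fold threshold), with a median log2 fold change of 0.05 beside 0.01 over all genes. Syt10, the gene of a synaptotagmin, was the 1 past 3-fold, at 6.31 and 5.67 CPM in the controls and 2.07 and 1.80 CPM in the mutants (log2 fold change -1.63 ± 0.17, FDR = 0.0282, edgeR). Synpr, which encodes the vesicle membrane protein synaptoporin, fell from 133 and 129 CPM to 70.9 and 70.1 CPM (-0.89 ± 0.05, FDR = 0.0102, edgeR). Slc30a3, the vesicular zinc transporter gene, fell by 0.85 and Syt7 by 0.38 on the log2 scale (FDR = 0.0135 and FDR = 0.0456, edgeR). The largest increases were Syt2, a fast synaptotagmin gene, which rose from 17.8 and 18.7 CPM to 28.0 and 32.1 CPM (0.72 ± 0.10, FDR = 0.0493, edgeR), and Syt9, which did not pass, at 3.42 and 3.41 CPM against 4.37 and 6.75 CPM.

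Unc13c, a vesicle priming gene, was at 19.8 and 16.6 CPM in the bulk controls and 11.2 and 8.55 CPM in the mutants and did not pass (-0.88 ± 0.17, FDR = 0.0941, edgeR). Of the 4 vesicle genes lower in bulk at FDR below 0.05, Syt10, Synpr and Slc30a3 were present in DGC nuclei, like Sv2c. Syt10 was at 64.5 and 55.3 CPM in the controls and 60.4 and 43.8 CPM in the mutants. Synpr was at 669 and 637 CPM against 770 and 774 CPM, and Slc30a3 at 92.1 and 103 CPM against 82.1 and 79.99 CPM. The levels of Syt7 in DGC nuclei are not given here. In DGC nuclei, 1 of 53 vesicle genes tested rose and 1 fell, where 1.47% of all genes were called. Rab3a, a vesicle-bound small GTPase gene, fell from 81.1 and 82.8 CPM to 24.1 and 37.7 CPM (-1.23 ± 0.21, FDR = 0.0266, edgeR). Its relative Rab3b rose from 1.85 and 1.66 CPM to 4.83 and 9.93 CPM (2.35 ± 0.43, FDR = 0.0308, edgeR). The DGCs of mutant 1 were 90 nuclei with 414115 UMIs of all genes, so the Rab3a and Rab3b values of that sample rest on few UMIs. In microglia, where 0.0562% of all genes were called, Syt6 rose from 22.0 and 16.7 CPM to 46.4 and 94.8 CPM (2.30 ± 0.50, FDR = 0.0425, edgeR), with 13 nuclei in mutant 1. No vesicle gene passed in the other 16 cell types or over all nuclei.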

How the data were processed

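Bulk RNA of both hippocampi of single mice was made into directional libraries, and the authors mapped reads with Bowtie2 2.2.9 and quantified genes with RSEM 1.3.0 in mm10, depositing expected counts, TPM and a matrix of normalized signal; expected counts were rounded here. For nuclei, the authors deposited UMI counts from Cell Ranger 3.1.0 with introns included, size factors (a ratio), and cell types assigned from clusters made in Monocle. No doublets were called here. UMI counts were summed per sample and type for 18 types with at least 10 nuclei per sample.

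Genotypes were compared with the quasi-likelihood test of edgeR 4.0.16 (R 4.3.3), TMM scaling and a filter on low counts, with Benjamini-Hochberg FDR over all genes tested. Calls needed FDR below 0.05 and a fold above 3 in bulk or 2 in nuclei. DESeq2 1.42.0, limma 3.58.1 (pseudocount 1) and leaving out samples were alternatives. The fits were also run on data simulated from bulk, DGCs, CA1 and inhibitory neurons 18. Changes were planted only in genes of higher level and, in nuclei, at a fold above the limit for calls. The simulations therefore do not cover low levels, such as Sv2b in DGCs, or the types left out. Shares were thinned to 1500 UMIs per nucleus. A share of 0 allows up to 3 counts. An exact permutation test of 2 against 2 samples cannot reach 0.05, so none was used. P-values of the genotype comparisons rest on the spread between mice, with variance estimates that borrow from all genes tested. In the test across types the mouse is a block. Its P-value rests on the variation left among types and mice after the level of each mouse is taken out, not on the spread between mice alone.

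The SV2 genes and all lists were chosen with earlier results of these data known. Named genes were the SV2 genes, Wls, for each SV2 gene the 5 of most similar pattern among genes of at least 20 CPM in 1 type, and vesicle genes called anywhere or with the 2 largest rises or falls in bulk. Slc30a3, Syt7, Unc13c and the nuclei of high Sv2b or Sv2c were chosen after their values were seen. No columns were left unmapped (0). The summed level of 1 marker list is not reported here.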

Additional observations from a re-analysis of the deposited data

Results flagged for a closer look

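The genotype difference of Sv2b varied among the 18 cell types by a test of that variation itself (FDR = 0.000726, edgeR quasi-likelihood test, genotype by type with the mouse as a block). The log2 fold changes ran from -0.69 in mossy cells to 1.47 in cluster 14, and both mutants were above both controls in 9 of 18 types. The types share the same libraries, so they are not separate outcomes, and some of the 9 rest on few Sv2b UMIs. The result was lost without mutant replicate 2 (FDR = 0.853) or control replicate 1 (FDR = 0.723).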

How the results depend on the processing

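The bulk fall of Sv2c kept its direction under every alternative run (other scaling, no filter, DESeq2, the replicate block, the normalized matrix in limma and each sample left out). The count of SV2 genes called ran from 0 to 1 when a sample was left out in bulk, and the log2 fold change of Sv2c from -1.86 to -1.67. In all nuclei no SV2 gene was called under any alternative, since none passed both FDR below 0.05 and a fold above 2. By FDR alone, Sv2b passed with DESeq2 (FDR = 0.0248) and with the replicate block (FDR = 0.0197, edgeR). Sv2c passed by FDR alone with the replicate block (FDR = 0.047, edgeR). Without DGC nuclei the sign turned for Sv2c (0.14) and Sv2a (-0.0128), and leaving out a sample gave -0.0457 to 0.0873 for Sv2a. Within types, 1 combination was called without the filter on low counts, and it was Sv2b in inhibitory neurons 5 (log2 fold change 1.29, FDR = 2.42e-05, edgeR). Leaving out a sample gave 0 to 2 calls, and ranges of 0.66 to 1.65 for Sv2b in inhibitory neurons 5, 1.00 to 3.11 in cluster 14, -0.83 to 0.0882 for Sv2c in DGCs, -2.31 to 0.40 in excitatory neurons 7, -0.15 to 0.34 in inhibitory neurons 18 and -0.61 to 0.87 for Sv2a in OPCs. Without the 5% of nuclei with most UMIs, Sv2c in inhibitory neurons 18 was at -0.0624. The count for the test across types ran from 0 to 2 when a sample was left out, an alternative chosen after seeing the data, and was 1 without DGCs. The cause of these changes was not tested. Thinning to 1500 UMIs lowered the mean control share of nuclei with a UMI, in the type where each gene was highest, from 88.0% to 38.3% for Sv2a, from 98.3% to 53.5% for Sv2b and from 82.9% to 57.2% for Sv2c.

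Samples of both genotypes share replicate numbers, but the labels do not say that a number marks a shared litter or day. The deviations of same-numbered samples correlated at r = 0.02 in bulk and 0.45 over all nuclei. With the replicate number as a block, 1 combination was called within types, Sv2b in inhibitory neurons 5 (1.28, FDR = 0.0021, edgeR), and the counts in bulk and over all nuclei were 1 and 0 as without the pairing.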
